A study of Mus musculus with 12 samples.

Results

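The receptors for prostaglandin E2 (Ptger1, Ptger2, Ptger3 and Ptger4), for prostacyclin (Ptgir) and for bradykinin (Bdkrb1 and Bdkrb2) were followed through 3 preparations of mouse dorsal root ganglia (DRG), the ganglia that hold the cell bodies of sensory neurons. They were picked as a family and found by gene symbol, with no threshold on their values but with earlier results of these data known, and all 7 are among the 24490 genes of the data. RNA was sequenced from 12 samples, 4 per preparation, all from DRG of every spinal level of adult male C57Bl/6 mice and all taken ex vivo, without culture. Intact samples were whole frozen ganglia of 1 mouse each. Dissociated samples (called unsorted here) were enzymatically separated cells of 2 mice each. MACS samples were cells of 8 mice each, dissociated in the same way and passed over a magnetic column that holds back cells bound by a cocktail of antibodies against non-neuronal cells. Unsorted and MACS samples are thus pools of animals, and a MACS sample went through both the dissociation and the column.

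Prostaglandins and bradykinin are made in injured and inflamed tissue and sensitise nociceptors, the sensory neurons that respond to damaging stimuli. All 7 receptors are coupled to G proteins. EP2 (Ptger2), EP4 (Ptger4) and the prostacyclin receptor IP (Ptgir) act mainly through Gs, adenylyl cyclase and protein kinase A. EP1 (Ptger1) and the bradykinin receptors B1 (Bdkrb1) and B2 (Bdkrb2) act mainly through Gq, phospholipase C and protein kinase C, and EP3 (Ptger3) acts mainly through Gi, which inhibits adenylyl cyclase. B2 is the constitutive bradykinin receptor, and B1 is known for its induction by inflammation.

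Values are FPKM, fragments divided by transcript length and by the mapped total of the sample, so that levels of different genes can be compared. The preparations were checked with marker lists. From unsorted to MACS samples, 8 of 10 nociceptor markers passed the test as higher and 1 as lower, of 8 pan-neuronal markers 3 were higher and 2 lower, and all 8 markers of large-diameter neurons were lower. Lower in the same comparison were 7 of 7 satellite glia, 6 of 7 Schwann cell, 5 of 6 fibroblast, 4 of 5 tested pericyte and smooth muscle (Rgs5 was higher), 3 of 3 tested macrophage and 2 of 2 tested neutrophil markers. Endothelial markers passed in neither direction (0 of 6 in limma, and their summed level ranged from 11.4 to 68.1 FPKM in MACS samples), while 7 of 7 tested red blood cell markers were higher. Intact samples held an estimated 16800000 to 20000000 fragments, unsorted samples 16100000 to 18900000 fragments and MACS samples 13900000 to 17600000 fragments. Intact replicate 1 stood apart from its group: over 3267 genes its root mean square log2 difference to the other intact samples was 0.678 to 0.684, against 0.251 to 0.353 among these.

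Ptgir had the highest mean of the 7 receptors in each preparation, and Bdkrb1 was barely present. In intact DRG, Ptgir had a mean of 13.1 ± 1.13 FPKM (SD, n = 4 here and below), Ptger3 6.88 ± 2.14, Ptger1 6.61 ± 0.909, Ptger4 2.50 ± 0.157, Bdkrb2 1.05 ± 0.408 and Ptger2 0.597 ± 0.101 FPKM. Only Ptger3 and Ptger1 had overlapping ranges among neighbours in that order. The same was true in unsorted DRG, where Ptger1 (7.20 ± 0.335 FPKM) came before Ptger3 (6.08 ± 1.03 FPKM) in every sample. In MACS samples the ranges of Ptgir (12.4 ± 3.43 FPKM), Ptger1 (11.6 ± 2.94 FPKM) and Ptger3 (10.9 ± 1.51 FPKM) overlapped, so that these 3 receptors had no clear order. Ptger4, Bdkrb2 and Ptger2 followed in that order in all 12 samples.

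**Figure D1:**
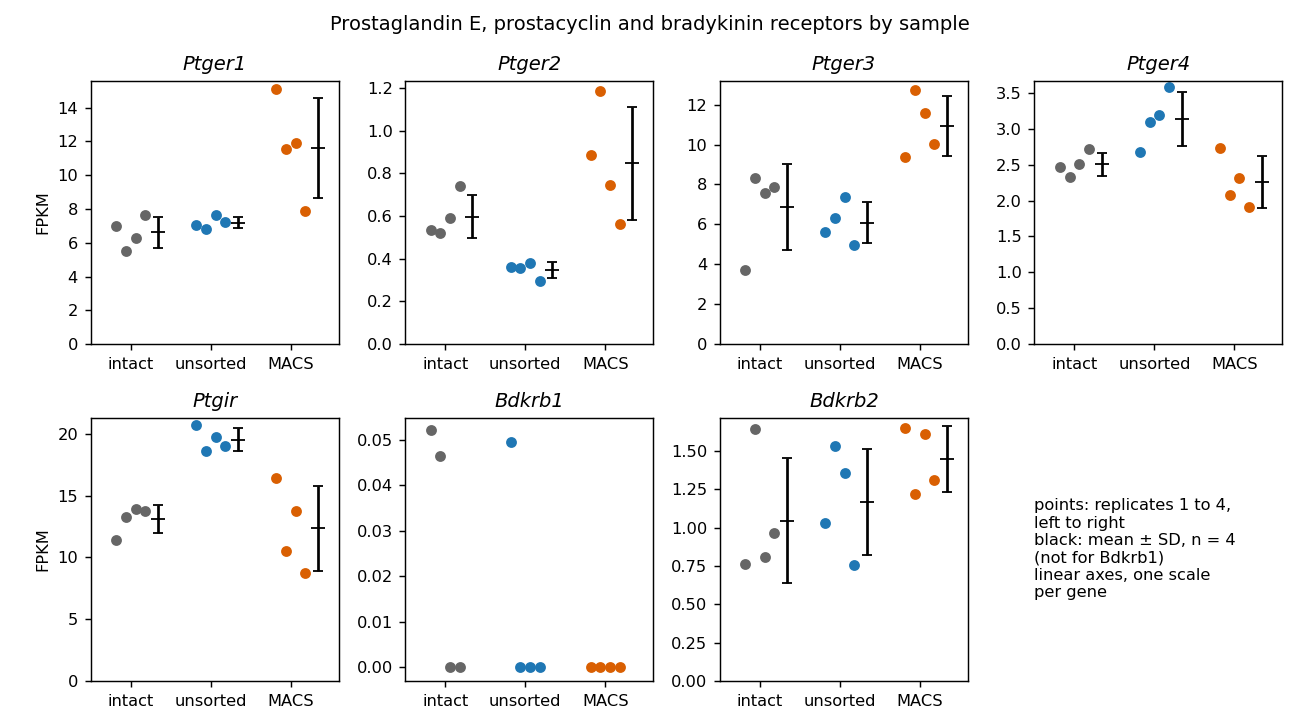
Expression of the 7 receptors in FPKM (linear axes, each gene on its own scale) in the 4 intact, 4 unsorted and 4 MACS samples, as points in the order of replicates 1 to 4, with the mean ± SD in black except for Bdkrb1. Ptger1, Ptger2 and Ptger3 were higher in every MACS than in every unsorted sample, and Ptgir was highest in the 4 unsorted samples (18.6 to 20.7 FPKM).

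The main question of the design, what sorting changes in the RNA of dissociated ganglia, is addressed by MACS against unsorted samples. These groups also differ in the mice per pool (8 against 2), and pool size and sorting cannot be told apart. Of the 5 receptors with a mean of at least 1 FPKM, 4 passed the limma test at an adjusted p under 0.05: Ptger1 and Ptger3 rose, and Ptgir and Ptger4 fell. In this comparison 46.5% of 12038 genes tested passed, 18.8% as higher and 27.7% as lower, so that a call alone sets no receptor apart. With the stricter criteria of the study, which also ask for a log2 ratio of means beyond 0.5 and for over 5 FPKM in the group with more, 3 receptors (Ptger1, Ptger3 and Ptgir) passed, beside 20.7% of genes. The summed red blood cell markers went from 88.1 to 325 FPKM in unsorted to 1476 to 12691 FPKM in MACS samples, and with these genes removed and the samples rescaled the same 4 receptors passed. In RNA of whole ganglia or cell mixtures, fewer cells of a type and less RNA per cell cannot be told apart.

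Ptger3, the Gi-coupled EP3 receptor, is a gene of chromosome 3 (mm10, 157566892 to 157644758). It stood at 9.38, 12.7, 11.6 and 10.0 FPKM in MACS replicates 1 to 4, against 5.64, 6.33, 7.38 and 4.98 FPKM in unsorted replicates 1 to 4. Every MACS sample was above every unsorted one. The difference of mean log2(FPKM + 0.1) was 0.84 (standard error 0.14, limma with Benjamini-Hochberg adjustment, adjusted p = 8.6e-04).

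Ptger1, the EP1 receptor, lies on chromosome 8 from 83666640 to 83670103. It had 15.1, 11.5, 11.9 and 7.91 FPKM in MACS replicates 1 to 4 and 7.06, 6.84, 7.63 and 7.25 FPKM in unsorted replicates 1 to 4. The groups did not overlap, although MACS replicate 4 was close to the unsorted samples. The log2 difference was 0.65 (standard error 0.17, adjusted p = 0.010 in limma) and lay between 0.51 and 0.82 with each sample left out in turn. Gipc1, the gene next to Ptger1, was higher by 0.31 (adjusted p = 0.018 from limma).

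Ptger2, the Gs-coupled EP2 receptor on chromosome 14 (44988111 to 45003820), was scarce and was below the filter for the limma fit. It had 0.887, 1.19, 0.746 and 0.564 FPKM in MACS replicates 1 to 4 and 0.363, 0.354, 0.381 and 0.294 FPKM in unsorted replicates 1 to 4. All MACS samples were above all unsorted samples, by a ratio of means of 2.43 and a log2 difference of 1.04 (exact two-sided permutation test over samples, p = 0.0286, the smallest that 4 against 4 allow and not corrected for the number of genes). Among the genes tested in limma, 18.4% showed the same complete separation upwards. These values rest on an estimated 29 to 67 fragments per MACS and 17 to 23 per unsorted sample, and on log2(FPKM + 1) the difference was 0.44.

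Ptgir, the prostacyclin receptor, lies on chromosome 7 from 16906490 to 16910905 and moved the other way. It had 16.5, 10.5, 13.7 and 8.76 FPKM in MACS replicates 1 to 4 and 20.7, 18.6, 19.7 and 19.1 FPKM in unsorted replicates 1 to 4. The MACS samples were spread widely, and each was below the lowest unsorted sample, a separation downwards that 27.8% of tested genes showed. It fell by 0.70 on the log2 scale (standard error 0.17, adjusted p = 0.0080 in limma). The call held with each sample left out in turn. Markers of large-diameter neurons fell with it, from a summed 854 to 1049 FPKM in unsorted to 84.6 to 158 FPKM in MACS samples, and their part in the fall of Ptgir was not tested.

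Ptger4, the EP4 receptor on chromosome 15 (5233399 to 5244187), had 2.73, 2.07, 2.32 and 1.91 FPKM in MACS replicates 1 to 4 and 2.68, 3.10, 3.19 and 3.58 FPKM in unsorted replicates 1 to 4. MACS replicate 1 and unsorted replicate 1 overlapped, and the other samples were separate. The log2 difference was −0.46 (standard error 0.15, adjusted p = 0.031 from limma). This call was the least stable of the 4, since it was lost without unsorted replicate 2 (adjusted p = 0.070), 3 (0.069) or 4 (0.097), without MACS replicate 2 (0.059), 3 (0.0504) or 4 (0.051), with median-ratio size factors (0.053) and with quantile normalization (log2 difference −0.07, adjusted p = 0.72). Ttc33, the gene next to Ptger4, differed by −0.16 (adjusted p = 0.30 from limma).

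Both bradykinin receptor genes lie on chromosome 12, 11019 bases apart, Bdkrb2 from 105563172 to 105593071 and Bdkrb1 from 105604091 to 105605428. Bdkrb2 had 1.65, 1.22, 1.61 and 1.31 FPKM in MACS, 1.03, 1.53, 1.36 and 0.755 FPKM in unsorted and 0.764, 1.64, 0.811 and 0.962 FPKM in intact replicates 1 to 4. The ranges of the 3 preparations overlapped. Its log2 difference between MACS and unsorted samples was 0.32, with a 95% interval from −0.23 to 0.87 (adjusted p = 0.31 from limma), so that neither no change nor a rise of the size seen for Ptger3 lies outside the interval. After quantile normalization, which moved the median of all genes from −0.04 to 0.10, the log2 difference was 0.84 (adjusted p = 0.013).

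Bdkrb1 was listed at 0 in 9 of 12 samples. It had 0.0522 and 0.0465 FPKM in intact replicates 1 and 2 and 0.0496 FPKM in unsorted replicate 1, each of which is worth an estimated 1 fragment. A count of 3 fragments, the limit that a count of 0 allows, would be 0.132 to 0.190 FPKM, depending on the sample. In the 9 samples listed at 0, Bdkrb1 was therefore not detectable above that level. For samples with an estimated 1 fragment the limit is higher and was not computed. No fold is given for Bdkrb1.

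**Figure D2:**
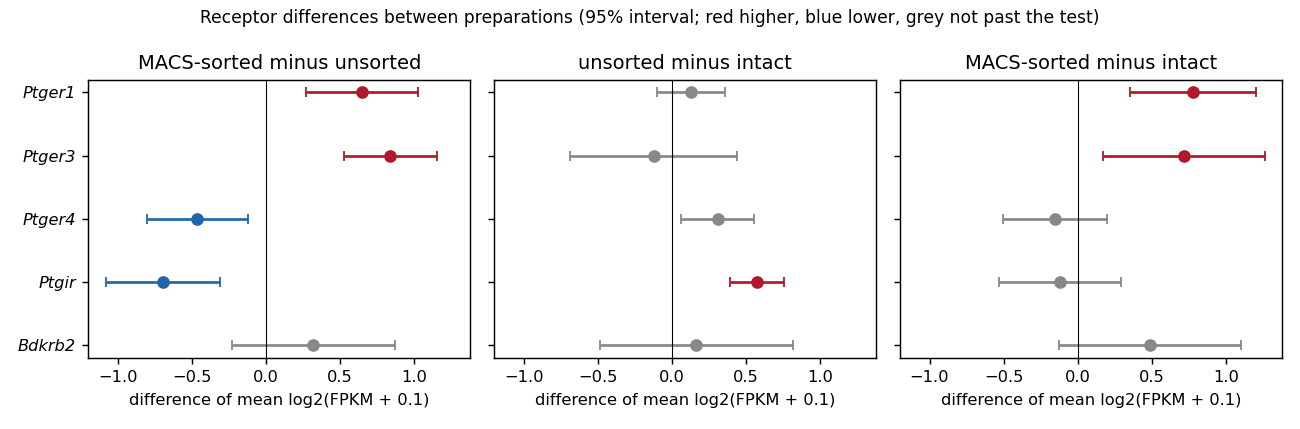
Difference of mean log2(FPKM + 0.1) with its 95% interval from limma for the 5 receptors tested, in MACS against unsorted, unsorted against intact and MACS against intact samples (4 samples per group), in red where higher and blue where lower past the test. In the first panel Ptger1 and Ptger3 lie to the right of 0 and Ptger4 and Ptgir to the left, and in the second only Ptgir passed.

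The makeup of the receptor pool differed between unsorted and MACS samples, while its total overlapped. The 5 receptors for prostaglandin E2 and prostacyclin summed to 36.3 ± 1.48 FPKM in unsorted DRG (35.2 to 38.3), 38.0 ± 6.49 FPKM in MACS samples (29.2 to 44.6) and 29.7 ± 3.25 FPKM in intact DRG. Within this sum, Ptgir made up 53.8% ± 2.28 of unsorted and 32.2% ± 4.17 of MACS samples. Ptger1 went from 19.8% ± 0.574 to 30.2% ± 2.80, Ptger3 from 16.7% ± 2.32 to 29.4% ± 6.11, and Ptger2 from 0.958% ± 0.0805 to 2.23% ± 0.601. Ptger4 went from 8.66% ± 1.18 to 5.97% ± 0.468. For each of the 5 shares the 4 MACS samples lay apart from the 4 unsorted samples (exact two-sided permutation test, p = 0.0286 each, the smallest possible). The 5 shares sum to 100% in a sample and are therefore not independent of each other. Shares do not depend on how samples are scaled to each other. In intact DRG, Ptgir made up 44.2% ± 1.61 of this sum, between the other preparations and overlapping neither. That position depends on the set summed. With all 9 prostanoid receptors in the sum, Ptgir made up 20.9% to 22.6% in intact and 14.1% to 21.3% in MACS samples, which overlapped. Its share of that sum was 29.5% to 32.9% in unsorted samples, above both.

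**Figure D3:**
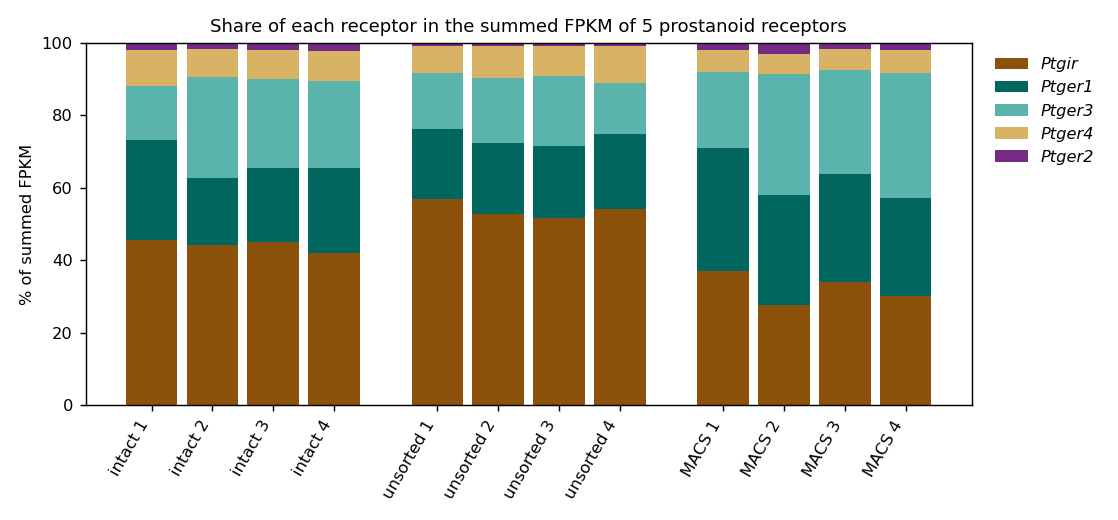
Share of each of 5 prostanoid receptors in their summed FPKM, in %, as stacked bars from 0 to 100 for each of the 12 samples. The bottom segment, Ptgir, takes a mean of 53.8% in unsorted and 32.2% in MACS samples, and the segments of Ptger1 and Ptger3 are taller in the latter.

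Since MACS samples were richer in nociceptor RNA, each receptor was also set against the mean log2(FPKM + 0.1) of the 10 nociceptor markers in its own sample. That mean was 0.60 higher in MACS than in unsorted samples. Relative to it, Ptger1 differed by 0.05 (p = 0.63), Ptger3 by 0.24 (p = 0.26) and Bdkrb2 by −0.28 (p = 0.26), all by exact two-sided permutation tests with overlapping groups. Ptgir was lower by 1.30 and Ptger4 by 1.06 on the log2 scale, with no overlap (exact p = 0.0286 each). Ptger2 was higher by 0.44 (exact p = 0.0286), but lower by 0.15 on log2(FPKM + 1) (exact p = 0.14). With the pan-neuronal markers as the reference, whose mean differed by 0.09, Ptger1 was higher by 0.56 and Ptger3 by 0.75 (exact p = 0.0286 each), and Bdkrb2 by 0.23 (exact p = 0.37).

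Unsorted against intact samples addresses what dissociation itself changes. Of the 5 receptors tested 1 passed, beside 22.5% of 12392 genes (14.8% as higher and 7.79% as lower), and this was Ptgir. Its level in intact replicates 1 to 4 was 11.4, 13.3, 13.9 and 13.7 FPKM, below all unsorted samples (32.8% of genes tested showed no overlap in one direction or the other). The log2 difference was 0.58 (standard error 0.08, adjusted p = 0.0031 in limma), a ratio of means of 1.49. It passed in each alternative fit and with each sample left out. In the same comparison the summed endothelial markers rose from 20.2 to 23.7 FPKM in intact to 38.2 to 50.5 FPKM in unsorted samples (6 of 6 markers higher), and 5 of 8 large-diameter neuron, 4 of 8 pan-neuronal, 3 of 7 satellite glia and 5 of 6 immediate early genes were higher. Fibroblast markers were lower in 6 of 6 (summed 496 to 942 FPKM in intact against 168 to 337 FPKM in unsorted samples) and macrophage markers in 6 of 8 (33.8 to 68.8 against 10.6 to 22.1 FPKM). The part of these cells and of the immediate early response in the rise of Ptgir was not tested.

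Ptger1 had 6.97, 5.54, 6.28 and 7.66 FPKM in intact replicates 1 to 4, within reach of the unsorted samples (log2 difference 0.13, 95% interval −0.10 to 0.36, adjusted p = 0.38 from limma). Ptger4 had 2.47, 2.33, 2.51 and 2.71 FPKM in intact replicates, with a log2 difference of 0.31 that did not pass (adjusted p = 0.071). Ptger3 had 3.71 FPKM in intact replicate 1 and 8.33, 7.58 and 7.90 FPKM in replicates 2 to 4. With all intact samples its log2 difference was −0.12 (adjusted p = 0.75), and without intact replicate 1 it was −0.39 (adjusted p = 0.032), so that this call turned on 1 sample. Ptger2 had 0.536, 0.520, 0.592 and 0.741 FPKM in intact replicates and was lower in every unsorted sample (log2 difference −0.63, exact p = 0.0286). Such a separation, in one direction or the other, was shown by 32.8% of genes tested. Bdkrb2 differed by 0.16 (adjusted p = 0.71).

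Between MACS and intact samples, the comparison that spans both steps and shares its samples with the comparisons above, 2 of 5 receptors passed, beside 34.8% of 12234 genes (14.1% as higher and 20.6% as lower). Ptger1 was higher by 0.78 on the log2 scale (standard error 0.19, adjusted p = 0.011 in limma) and Ptger3 by 0.72 (standard error 0.24, adjusted p = 0.046). The Ptger3 call was lost in 6 of 8 fits with 1 sample left out (without intact replicate 3 or 4 or any one MACS sample, adjusted p up to 0.11), as well as without a filter, without the trend and with red blood cell genes removed, and without intact replicate 1 the difference was 0.45, a value reduced by over 1.5 times. Ptgir differed by −0.12 (95% interval −0.53 to 0.29, adjusted p = 0.65), Ptger4 by −0.15 (adjusted p = 0.48), Bdkrb2 by 0.48 (adjusted p = 0.20) and Ptger2 by 0.41 (exact p = 0.11). For Ptgir, the levels in the outer preparations thus overlapped while those of unsorted DRG stood above both.

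To show what precedes the genes that moved most clearly in opposite directions, the 250 bases before the start of Ptger3 (chr3:157566626-157566875, plus strand) and of Ptgir (chr7:16906240-16906489, plus strand) are given from RefSeq on GRCm38.p6. Capitals mark each copy of GGGCGG, a GC box, on either strand (CCGCCC on the printed strand is the same box read on the other strand).
Ptger3: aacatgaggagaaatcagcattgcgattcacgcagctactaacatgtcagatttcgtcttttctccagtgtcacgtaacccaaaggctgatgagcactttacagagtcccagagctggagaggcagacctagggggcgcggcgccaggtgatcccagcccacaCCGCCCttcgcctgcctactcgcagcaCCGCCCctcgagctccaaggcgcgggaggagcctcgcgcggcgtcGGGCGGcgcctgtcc
Ptgir: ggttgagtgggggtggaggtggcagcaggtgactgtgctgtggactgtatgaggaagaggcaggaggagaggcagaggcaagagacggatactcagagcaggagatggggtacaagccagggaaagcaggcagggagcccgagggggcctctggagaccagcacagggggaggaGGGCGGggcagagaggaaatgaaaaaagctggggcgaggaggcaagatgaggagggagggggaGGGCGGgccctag
The window of Ptger3 held 3 such boxes and that of Ptgir 2, with a GC content of 62.0% and 63.6% against a median of 52.4% over 32851 promoter windows of the same length, 32.7% of which held at least 1 box. RefSeq windows were matched for 5 of the 7 receptors. That of Ptger4 held 4 boxes, of which 2 overlap, and 1 CCAAT, that of Ptger2 held 1 CCAAT (33.8% of all windows hold one), and that of Bdkrb2 none of the motifs searched. Of the other motifs searched on both strands, TATAAA is in 12.4% of all windows, TGACG in 17.8%, TGTGGT in 14.0% and TAATTA in 4.84%, and none was found in these 5 windows.

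Similarity of profiles was measured by the Pearson correlation of log2(FPKM + 0.1) over the 12 samples, for 12278 genes. Among the genes most like Ptgir were Ccdc6 (0.966) and Kcnk4 (0.961), which encodes the potassium channel TRAAK. Kcnk4 averaged 2.63 FPKM in intact, 4.22 FPKM in unsorted and 2.28 FPKM in MACS samples. Like Ptgir, it rose from intact to unsorted samples (log2 difference 0.68, adjusted p = 0.020 from limma) and fell by 0.92 from unsorted to MACS samples (adjusted p = 0.012). These correlations share libraries and 3 groups of samples and are descriptions.

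By this measure Ptger1 was most like Fam131b (0.955), Actr1b (0.955), a subunit of the dynactin complex, and Ctxn1 (0.948). Ptger3 was most like Armcx4 (0.968), Trim56 (0.955) and Klf7 (0.955), a zinc finger transcription factor of sensory neurons. For Ptger4 the closest genes were Cyp2u1 (0.914), Lrrc24 (0.907) and Xk (0.901), and for Bdkrb2 Sass6 (0.873), Dph2 (0.819) and Lrch1 (0.819). No gene was named for more than 1 receptor.

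The remaining prostanoid receptors covered a wider range than the 5 above. From unsorted to MACS samples, 1 of 2 tested rose and 1 fell. Ptgdr, the DP1 receptor for prostaglandin D2, had 31.3, 35.6, 35.6 and 22.7 FPKM in MACS and 13.7 to 14.8 FPKM in unsorted samples, a log2 difference of 1.12 (standard error 0.13, adjusted p = 1.2e-04, limma), and its mean exceeded that of each of the 7 receptors in MACS samples. Ptgfr, the receptor for prostaglandin F2 alpha, fell by 3.92 on the log2 scale, from 10.3 to 12.5 FPKM in unsorted to 0.310 to 1.25 FPKM in MACS samples (adjusted p = 8.9e-06). Satellite glia markers fell in the same comparison, from a summed 2252 to 2830 FPKM to 89.9 to 202 FPKM, and their part in the fall of Ptgfr was not tested. Tbxa2r, the thromboxane receptor, was under the filter and lower in every MACS sample (0.0420 to 0.641 against 1.24 to 1.99 FPKM, exact p = 0.0286). Of the genes tested in limma, 27.8% showed the same complete separation downwards. Ptgdr2 was listed at 0 in all samples.

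Of 10 genes of prostanoid synthesis, 5 were tested between MACS and unsorted samples, and 0 rose and 3 fell (median log2 difference −2.51, against −0.04 over all genes tested). Over all genes tested in that comparison, 18.8% passed as higher and 27.7% as lower. Ptges, the inducible prostaglandin E synthase, fell from 2.61 to 3.10 FPKM in unsorted to at most 0.0657 FPKM in MACS samples (adjusted p = 4.9e-06). Ptgis, the prostacyclin synthase, fell by 2.51 (adjusted p = 0.0056), and Ptgds, a prostaglandin D synthase abundant in meninges, by 3.59 (adjusted p = 0.040). The size of the Ptgds fall is uncertain, since its values ran from 4.51 to 116 FPKM in unsorted and 0.409 to 11.5 FPKM in MACS samples and overlapped. Fibroblast markers, which were summed at 168 to 337 FPKM in unsorted and 7.62 to 32.4 FPKM in MACS samples, fell in the same comparison, and their part was not tested. Ptgs1 and Ptgs2, which encode the cyclooxygenases COX-1 and COX-2, were under the filter. Ptgs1 was lower in every MACS than in every unsorted sample (mean 0.305 against 0.920 FPKM, exact p = 0.0286), a separation downwards that 27.8% of genes tested showed. Ptgs2 had 0.140 to 0.201 FPKM in intact samples, 0.240 to 0.752 FPKM after dissociation and 0.365 to 1.41 FPKM after sorting. Both dissociated preparations were above all intact samples (exact permutation test, p = 0.0286 each, the smallest possible and not corrected for the number of genes). Between unsorted and intact samples, 32.8% of genes tested showed no overlap in one direction or the other. For MACS against intact samples this share was not computed.

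Of 5 clearance genes 4 were tested between MACS and unsorted samples, and 0 rose and 3 fell (median log2 difference −0.75). Beside this, 18.8% of all genes tested passed as higher and 27.7% as lower. The genes that fell were Slco2a1, the prostaglandin transporter, by 1.85, and the prostaglandin reductases Ptgr1, by 0.90, and Ptgr2, by 0.61. Hpgd, the dehydrogenase that inactivates prostaglandins, was under the filter, with overlapping groups (mean 0.350 against 1.12 FPKM, exact p = 0.086).

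Among 15 genes that form or break down kinins, 7 were tested between MACS and unsorted samples. Of the 7 genes 1 rose and 3 fell (median −0.21), beside 18.8% of all genes tested as higher and 27.7% as lower. The precursor and its activators, Kng1, Kng2, Klk1, Klkb1 and F12, were under the filter in each comparison. The gene that rose was Cpn1, the catalytic subunit of carboxypeptidase N, which trims bradykinin to the preferred ligand of B1. It had 4.30 to 7.04 FPKM in MACS and 1.60 to 2.27 FPKM in unsorted samples (log2 difference 1.42, standard error 0.18, adjusted p = 1.7e-04, limma). Mme, or neprilysin, fell by 3.42 (adjusted p = 1.7e-05), Ace, the angiotensin converting enzyme, fell by 1.67 (adjusted p = 8.0e-04), and Ece1 fell by 0.29 (adjusted p = 0.036). These are peptidases that degrade bradykinin.

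Downstream of the receptors, 23 of 26 genes for G proteins and effectors were tested between MACS and unsorted samples. Of the 23 genes 5 rose and 12 fell (median −0.61), beside 18.8% of all genes tested as higher and 27.7% as lower. The genes that rose were Gnaq, which encodes the alpha subunit of Gq, Plcb3, a phospholipase C, Prkca and Prkce, 2 protein kinases C, and Gnai2. Plcb3 reached 185 FPKM in MACS against 92.0 FPKM in unsorted samples (log2 difference 0.99, adjusted p = 2.6e-04), Prkca rose by 0.82 (adjusted p = 0.0021) and Gnaq by 0.75 (adjusted p = 0.0012). On the cyclic AMP side, 6 of the 8 adenylyl cyclases tested fell, among them Adcy1 by 1.53 (adjusted p = 4.7e-06) and Adcy3 by 1.34 (adjusted p = 1.8e-05), and Prkaca, a catalytic subunit of protein kinase A, fell by 0.75 (adjusted p = 6.6e-05). The cyclases Adcy5 and Adcy6 did not pass (log2 difference 0.35 and 0.19, adjusted p = 0.10 and 0.25 in limma). Neither did Prkacb, another such subunit (0.03, adjusted p = 0.81). Gnas, for the Gs alpha subunit, differed by −0.13 (adjusted p = 0.36). The phospholipase C genes moved in both directions, since Plcb1 fell by 1.27 (adjusted p = 2.1e-04 in limma) and Plcb4 by 1.15 (adjusted p = 1.1e-04). Of the calcium release channels, Itpr3 fell by 4.15 and Itpr1 by 0.62 (adjusted p = 0.047), and Gnai1 fell by 1.31. Between MACS and intact samples, 6 of 23 effectors tested rose and 8 fell, beside 14.1% of genes tested as higher and 20.6% as lower. There Adcy1 was lower too (log2 difference −1.46, adjusted p = 5.8e-05 from limma). Adcy3 (−0.47, adjusted p = 0.11) and Prkaca (−0.13, adjusted p = 0.31) did not pass, and Prkacb was higher by 0.35 (adjusted p = 0.014).

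Of 6 genes for receptor desensitisation 5 rose and 0 fell from unsorted to MACS samples (median 0.52). Beside the counts of this list and the next, 18.8% of all genes tested passed as higher and 27.7% as lower. Adrbk1 and Adrbk2, the kinases GRK2 and GRK3, rose by 0.80 (adjusted p = 1.8e-04) and 0.71 (adjusted p = 3.3e-04), Grk5 by 0.53 and Grk6 by 0.51, and Arrb1 differed by 0.14 (adjusted p = 0.13, limma). Of 12 channels that these pathways sensitise or modulate, 6 rose and 5 fell. The sodium channel gene Scn11a rose by 1.03 (adjusted p = 5.4e-05). The largest falls were those of the chloride channel gene Ano1, by 3.53, the potassium channel gene Kcnq3, by 2.11, and the pacemaker channel gene Hcn2, by 1.17. Between MACS and intact samples Ano1 and Kcnq3 were lower too (log2 difference −2.55 and −1.70), while Hcn2 did not pass (−0.21, adjusted p = 0.19 from limma).

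**Figure D4:**
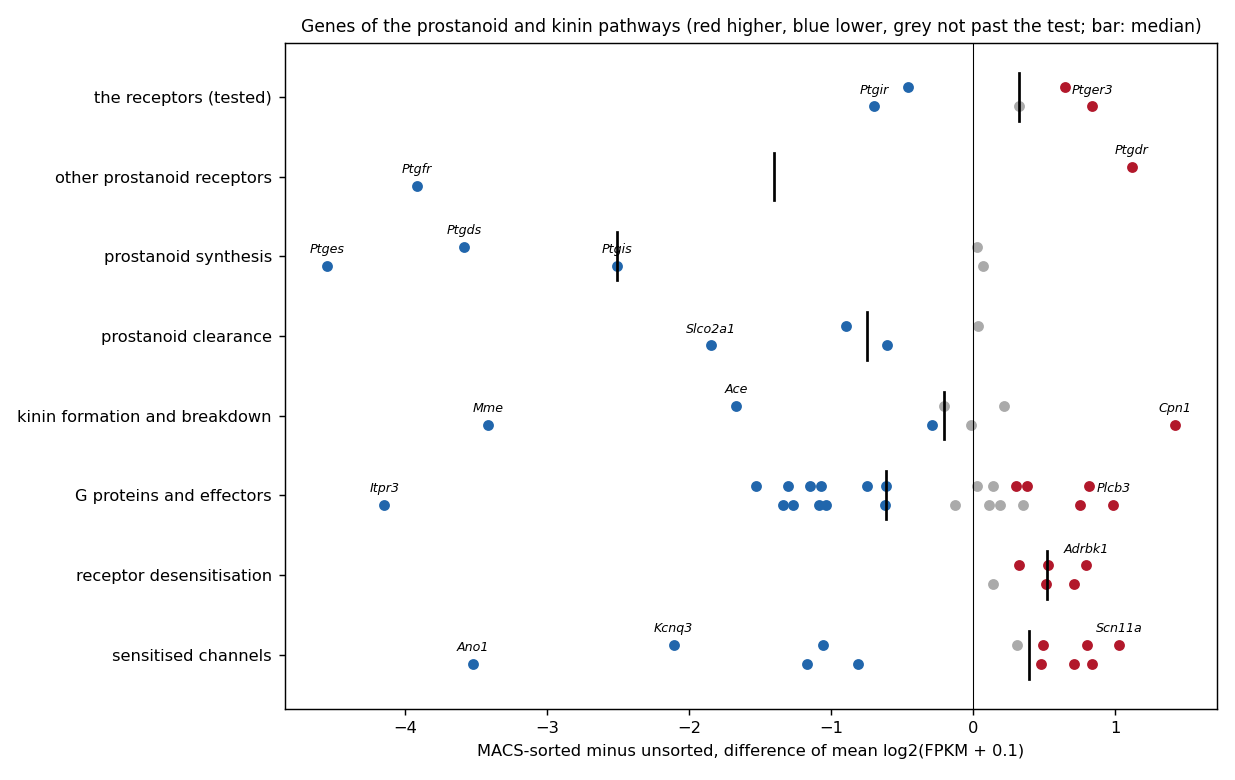
Difference of mean log2(FPKM + 0.1) between 4 MACS and 4 unsorted samples for each tested gene of the receptor set and of 7 lists of the prostanoid and kinin pathways, 1 point per gene (red higher, blue lower, grey not past the test) with a bar at each median. All desensitisation genes lie to the right of 0 and 5 of 6 passed, whereas in synthesis and clearance 3 genes each passed, all as lower. Over all genes tested, 18.8% passed as higher and 27.7% as lower.

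The same lists were also read between unsorted and intact samples. Of 23 effectors tested, 10 rose and 1 fell, beside 14.8% of all genes tested as higher and 7.79% as lower. Of the Gs pathway, Prkaca rose by 0.62 (adjusted p = 0.0014), Gnas by 0.39 (adjusted p = 0.0061) and Adcy3 by 0.87 (adjusted p = 0.011). The rise was not limited to that pathway, since Gnai1 rose by 0.45 (adjusted p = 0.0089), Itpr3 by 0.54 (adjusted p = 0.020) and Prkce by 0.34 (adjusted p = 0.022, all from limma). Adcy6 was lower by 0.40. Of 6 synthesis genes tested, 0 rose in limma and 1 fell, Ptgds, from 368 to 605 FPKM in intact to 4.51 to 116 FPKM in unsorted samples (adjusted p = 0.020). Ptgdr fell by 0.32 (adjusted p = 0.012). Desensitisation genes passed in neither direction (0 of 6).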

How the data were processed

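Polyadenylated RNA of 12 samples was sequenced from libraries of a directional kit. As stated in the submitters' processing notes and the methods, the authors aligned reads to mm10 with TopHat2, merged lanes with SAMtools and ran Cufflinks 2.1.1. The deposited table holds FPKM as normalised by the authors, and no read counts were used. The paired comparisons of the study used CuffDiff, which needs alignments and was replaced here by limma 3.58.1 on R 4.3.3, fitted to log2(FPKM + 0.1) with an intensity trend, each fit using the 8 samples of both groups and those genes that averaged 1 FPKM or more in them. Tests were two-sided, with Benjamini-Hochberg adjustment over all genes tested. A log2 difference on this scale understates changes of low genes. Single values were compared by exact permutation tests over samples. Samples of a group are labelled as separate, and p-values measure their spread only.

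The receptors, pathway lists and marker lists were chosen with earlier results of these data known. Named are all receptors, up to 4 called genes per pathway list with the largest change in MACS against unsorted samples, a few fixed genes (Ptgs1, Ptgs2, Ptges, Ptgis, Hpgd, Ace and Mme), the 3 genes most correlated with each receptor and genes overlapping or next to one. Further pathway genes (Gnas, Gnaq, Gnai2, Plcb1, Plcb3, Plcb4, Itpr1, Prkca, Scn11a, Prkaca, Prkacb, Prkce, Tbxa2r, Rgs5, Ptgdr2, Adcy5, Adcy6, Arrb1, the kinin precursor and activator genes) were named after their values were seen. A few genes that this rule takes in are not reported here but are part of all counts. Whether the counting used strand is not given in the sources used here. Depth was estimated from the spacing of low FPKM values, with a fragment length of 200 assumed, and fragment numbers are therefore approximate and cover counting error only. Promoters are 250 bases before the start, from RefSeq on GRCm38.p6. The fit was tested on simulated data in which both groups had the spread of the unsorted samples and changed genes differed by 1 on the log2 scale. There, 192 of 199 changed genes were called in the right direction, and 5 unchanged genes among 12141 genes tested. MACS samples spread more widely for receptors such as Ptger1 and Ptgir, and most receptor differences were smaller than 1. The simulation does not show how the fit performs in that setting. Alternatives covered pseudocounts, filters, scalings, the trend, a joint fit, a replicate block and each sample left out.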

Additional observations from a re-analysis of the deposited data

Results flagged for a closer look

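Each receptor was examined in each preparation for a lowest or highest sample far from the other 3, in 20 groups of 4 samples with any value above 0, and 2 stood out. Such a gap arises by chance in about 1 in 20 groups. Ptger3 had 3.71 FPKM in intact replicate 1, with 7.58 to 8.33 FPKM in the other intact samples. The same library stood apart over all genes, and the results of Ptger3 are given with and without it above. Bdkrb1 had 0.0496 FPKM in unsorted replicate 1 and was listed at 0 in the other unsorted samples, a difference of an estimated 1 fragment.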

How the results depend on the processing

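In MACS against unsorted samples, Ptger1, Ptger3 and Ptgir kept their direction and passed in all alternatives and with each sample left out, and Ptger2 passed as well without a filter on low values. In unsorted against intact samples, 1 receptor passed, and 2 passed without a filter on low values (Ptger2 and Ptgir), with quantile normalization (Ptger4 and Ptgir), and at most with 1 sample left out (1 to 2, the second being Ptger3 without intact replicate 1). In MACS against intact samples, 2 passed, and 1 passed (Ptger1) without a filter, without the trend and with red blood cell genes removed, and 1 to 2 with 1 sample left out (1 in 6 of 8 such fits, where Ptger3 was lost). The log2 difference of Ptger4 in that comparison turned to 0.37 with quantile normalization (adjusted p = 0.10), under which Bdkrb2 passed (log2 difference 1.24, adjusted p = 0.0093), and that of Ptgir ranged from −0.27 to 0.031 with 1 sample left out, the highest without MACS replicate 4. Relative to nociceptor markers, a pseudocount of 1 gave −0.0043 for Ptger1 and −0.15 for Ptger2, and the pan-neuronal reference gave 0.56 for Ptger1, 0.75 for Ptger3 and 0.23 for Bdkrb2. The cause of these changes was not tested. Quantile normalization moved the median log2 difference of all genes from −0.04 to 0.10 (MACS against unsorted) and to 0.13 (against intact), and the share of higher calls from 40.4% to 59.3% and from 40.6% to 60.3%. In unsorted against intact samples, removing red blood cell genes moved that share from 65.4% to 43.8%, and the genes called went from 2793 to 1719 in the joint fit and 1594 to 4390 with 1 sample left out, the highest without intact replicate 1. Unsorted replicates 1 and 2 had the smallest median absolute log2 difference of any pair of one group (0.037 over 3267 genes), though not the smallest root mean square difference (0.390, against 0.248 for unsorted replicates 2 and 4), and averaging them, which gave 1692 calls over all genes against intact, changed no receptor call.

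The labels give each group replicates 1 to 4, and same-numbered samples did not deviate together (correlations of −0.143 to 0.067 over 12283 genes). With the replicate number as a block, Ptger4 no longer passed in MACS against unsorted samples (log2 difference −0.46, adjusted p = 0.083), and genes called went from 5592 to 5171. The values of Ptger2 and Bdkrb1 are limited by depth.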
